A study of Homo sapiens with 32 samples.

Results

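Deletion of MYC box I, a short conserved segment near the N terminus of the transcription factor MYC, was compared with full-length MYC in 8 of the 32 RNA sequencing libraries of the series. The 8 libraries are the 4 labelled d1, from cells with the box I deletion (called ΔMBI here), and the 4 labelled WT. All come from TET21 (SH-EP/TET21/N), a human neuroblastoma line with a MYCN transgene that is turned off by doxycycline. The cells are labelled by their MYC deletion status beside an empty vector. The labels' protocol names doxycycline at 1 µg/mL for 7 days, worded for the WT cells and repeated for each library, and passages that are the same for all groups. An empty vector group (EV, 4 libraries) is used here only through the comparison of WT with EV. The labels name d1 as "MYC 1" without giving the residues removed, so that its reading as box I rests on the name. They do not say whether a group is a clone or a pool, which promoter drives MYC, or whether the libraries numbered 4 to 7 are separate cultures, and the calls may then measure technical spread alone.

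MYC binds DNA together with MAX, mainly at the E-box CACGTG, and raises genes of ribosome production, nucleotide synthesis and mitochondria in many cell types. Box I lies in the transactivation domain and holds a phosphodegron, in which a serine and then a threonine are phosphorylated, the latter by GSK3. After removal of the serine phosphate by PP2A the ubiquitin ligase subunit FBXW7 binds and MYC is degraded. The threonine is a known site of mutation in lymphomas.

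The values are the authors' own: for each gene the log2 fold of ΔMBI over WT, and the PPDE, the probability under a Bayesian model that the gene is differentially expressed. The words called, rose and fell are kept for genes with a PPDE of 0.95 or more, which the file headers equate with a false discovery rate below 0.05. No value per library, depth or standard error enters, so folds stand without an error and the spread between the 4 libraries of a group enters only through the PPDE. In the authors' deposited table the targeted gene MYC stood at 0.46 (PPDE 6.6e-04), and its paralogs MYCN and MYCL at -0.02 and -0.16, and none was called. In WT against EV, MYC stood at 0.98 there and was not called either (PPDE 0.348). A fold over the whole MYC gene does not separate the cells' own transcript from the introduced one and does not show the deletion. The partner MAX stood at -0.01 in the authors' deposited table.

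Few genes separated ΔMBI from WT, and most of those called in the authors' fit over all genes were lower in ΔMBI. This majority of falls was not seen in their second fit, over MYC-bound genes, where 10 rose and 9 fell and folds lay higher by a median of 0.076. Fallen genes included the neuronal pentraxin NPTX1 and the phosphatase subunit PPP2R2C, with folds well beyond the others. The collagen COL21A1 came next, and a larger set of RNA-processing genes fell with small folds. Risen genes included the matricellular pair CTGF and CYR61, the growth factor EREG and the checkpoint ligand PDCD1LG2. Of 37973 genes with values the authors' deposited table called 45, or 0.119%, of which 34 fell (0.0895%) and 11 rose (0.029%). Among the 44 called genes with an interpretable fold the median absolute log2 fold was 0.39. Of these, 30 moved by under 0.5, 8 by 0.5 to 1 and 6 by at least 1, and the last 6 all fell. The remaining call, the unannotated transcript CTD-2328D6.1, rose in ΔMBI, but has no value in WT against EV, which the file gives to genes without reads, so its fold is not given. In bulk RNA a smaller share of cells with a transcript and less of it per cell cannot be told apart. For scale, the comparison of WT with EV called 1876 of 38218 genes (4.91%) in the authors' deposited table.

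**Figure D1:**
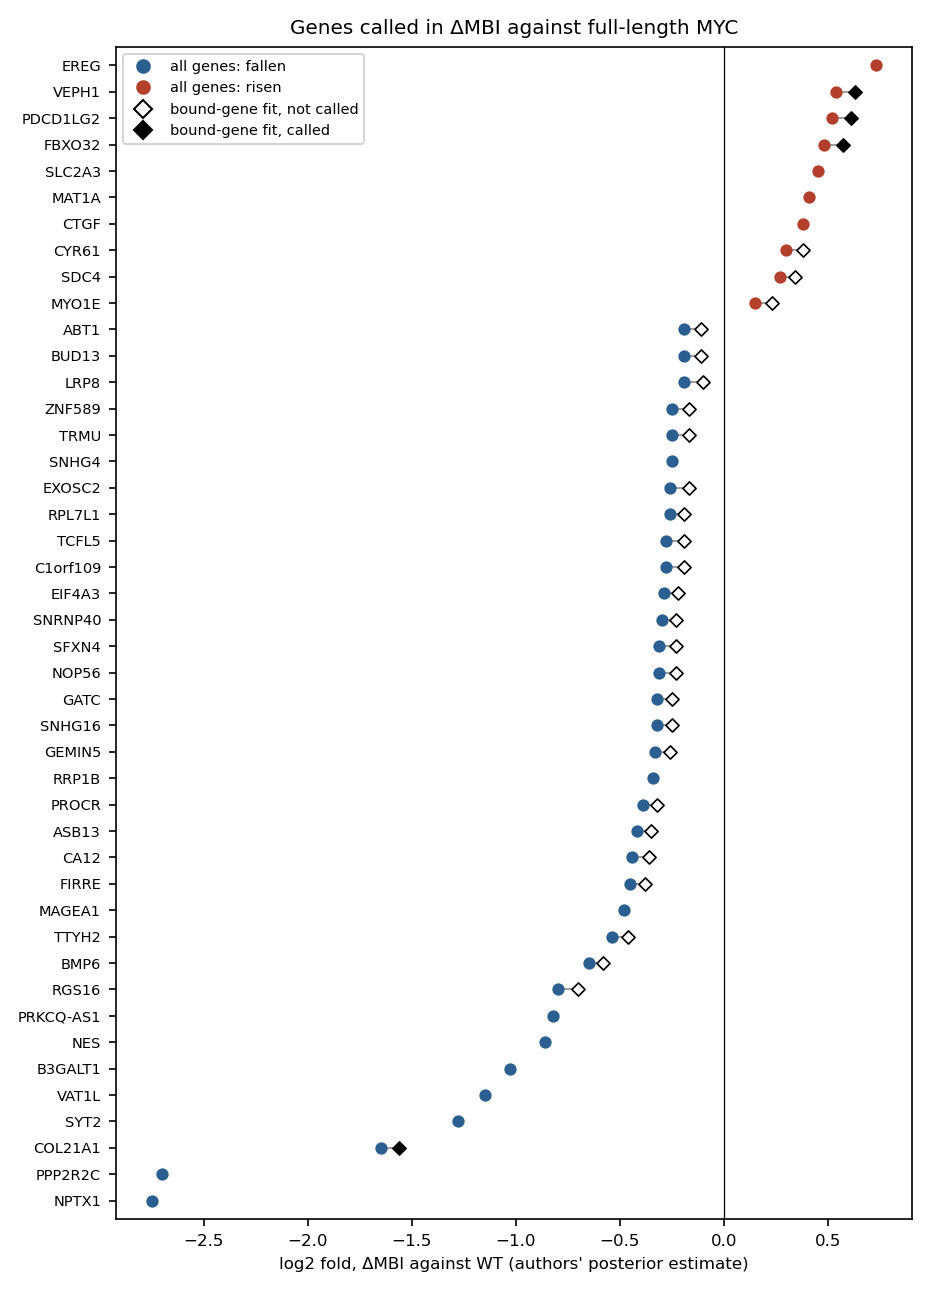
Log2 folds of ΔMBI over WT (x axis) are plotted for the 44 called genes with an interpretable fold (y axis). Filled circles come from the authors' fit over all genes, blue for fallen and red for risen, and diamonds from their fit over MYC-bound genes, black where that fit also made a call. Folds run from -2.75 for NPTX1 to 0.73 for EREG, and each diamond lies to the right of its circle.

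The called genes were sorted into roles from general knowledge after the calls had been seen, so the groups describe them and are not tested. Genes of synapses, neurons and neural progenitors made up 5 of the fallen genes and held the deepest fall. NPTX1 encodes a secreted pentraxin that gathers at synapses. In the authors' deposited table it stood at -2.75 (PPDE 1.00), that is, at 14.8% of its WT level, after 5.34 in WT against EV. SYT2 encodes a synaptotagmin, a calcium sensor of vesicle release. It stood at -1.28 (PPDE 0.987) in the authors' deposited table, or 41.1% of WT, and at 0.96 in WT against EV. VAT1L, a relative of a synaptic vesicle protein, stood at -1.15 (PPDE 1.00), and NES, the intermediate filament nestin of neural progenitors, at -0.86 (PPDE 0.994) in the authors' deposited table. NES had only 0.15 in WT against EV there, with a PPDE of 0.0143. The smallest fall of the group was that of the reelin receptor LRP8, at -0.19 (PPDE 0.988) in the authors' deposited table. The paralog NPTXR stood at -0.23 without a call and NPTX2 had no value in the authors' deposited table. Of the whole list of pentraxins and vesicle release genes 2 of 23 fell, NPTX1 and SYT2, and the list's median of -0.06 was near the -0.066 of all tested genes. SNAP25 (-1.55) and SYT7 (-0.96) had large folds in the authors' deposited table with a PPDE of 0.0190 and 3.8e-03.

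Signalling and secreted proteins gave 5 further fallen genes. PPP2R2C is a regulatory B subunit of PP2A, the phosphatase that also acts on the box I serine. At -2.70 (PPDE 0.998) in the authors' deposited table it was at 15.4% of WT, and in WT against EV it stood at 1.32 without a call (PPDE 0.606). It was the only called gene of 19 tested PP2A subunits, whose median was -0.07. Its relatives PPP2R2A (-0.18) and PPP2R2B (-0.24) were not called in the authors' deposited table. The PP2A subunits PPP2R5A (-0.06) and PPP2R5B (0.29), of another family, were not called there either. A part of PPP2R2C in the removal of the serine phosphate was not tested. COL21A1 encodes a fibril-associated collagen chain. The authors' deposited table put it at -1.65 (PPDE 0.995), or 31.9% of WT, and at 1.00 in WT against EV (PPDE 0.751). No other of 39 tested collagens was called, the list's median was -0.08, and COL4A1 and COL5A3 stood at 0.37 and 1.05 in the authors' deposited table. RGS16, which speeds GTP hydrolysis on G proteins, stood at -0.80 (PPDE 1.00) in the authors' deposited table, against 3.25 in WT over EV. The ligand BMP6 followed at -0.65 (PPDE 0.996) and PROCR, the protein C receptor, at -0.39 (PPDE 1.00) in the authors' deposited table, with 1.41 and 0.45 in WT against EV.

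Genes of ribosome assembly, splicing and RNA processing formed the largest group, 11 fallen genes with folds between -0.34 and -0.19 and a median of -0.29. Of these 9 were also in the authors' second fit, and none of the 9 was called there, with a PPDE of 0.0535 or less. They were small falls: the lowest, RRP1B, was at 78.8% of WT and the least, BUD13, at 87.8%. RRP1B, a nucleolar protein, stood at -0.34 (PPDE 0.977), and NOP56, a core protein of the particles that methylate ribosomal RNA, at -0.31 (PPDE 0.998) in the authors' deposited table. The RRP1B paralog RRP1 lay lower, at -0.44, with a PPDE of 3.7e-04 and no call in the authors' deposited table. RPL7L1, a relative of a large-subunit ribosomal protein, stood at -0.26 (PPDE 0.984), and ABT1, a factor of early ribosomal RNA processing, at -0.19 (PPDE 0.969) in the authors' deposited table. The exosome subunit EXOSC2, which belongs to the complex that trims RNA from the end, stood at -0.26 (PPDE 1.00) in the authors' deposited table. GEMIN5, the RNA-binding subunit of the SMN complex that loads spliceosomal RNAs, was at -0.33 (PPDE 0.999), and the spliceosome subunits SNRNP40 and BUD13 were at -0.30 and -0.19 in the authors' deposited table. EIF4A3, the helicase of the exon junction complex, was at -0.29 (PPDE 0.998) in the same table. The snoRNA host genes SNHG16 and SNHG4 stood at -0.32 and -0.25 (PPDE 0.997 and 0.977) in the authors' deposited table. SNHG4 overlaps MATR3 in GENCODE, which stood at -0.03 (PPDE 0.280), and how reads of the overlap were assigned is not given in the sources used here. Reads of RPL7L1 and of its paralog RPL7 (-0.25, not called in the authors' deposited table) may also be shared.

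Of the 45 called genes 36 matched a RefSeq promoter window, 250 bases before to 50 after a start on GRCh38.p14, by symbol or synonym. CACGTG, which reads the same on both strands and is one form of CANNTG, was found in 3 of these genes, EIF4A3, RPL7L1 and FIRRE. By window it was in 3 of 50 (6.0%), against 7.26% of all 35116 windows and 10.1% of the 11157 windows of genes with a MYC binding site. The broader CANNTG was in 60.0% of the windows of called genes, 61.4% of those of genes with a binding site and 68.7% of all windows. The deposited table gives no positions of binding sites, so a window need not hold the bound site. The 250 bases before the start are printed for the pair of RNA-processing genes with CACGTG there, in capitals, and for COL21A1 and VEPH1, called in both of the authors' fits and without CACGTG in the window shown. In VEPH1 the capitals mark CANNTG, of which the COL21A1 stretch has none. Both genes have further windows that are not printed, and those of COL21A1 hold CANNTG. In EIF4A3 the motif starts 121 bases before the start of the gene and in RPL7L1 116 bases before it.
EIF4A3 (GRCh38.p14, chr17:80147129-80147378, minus strand): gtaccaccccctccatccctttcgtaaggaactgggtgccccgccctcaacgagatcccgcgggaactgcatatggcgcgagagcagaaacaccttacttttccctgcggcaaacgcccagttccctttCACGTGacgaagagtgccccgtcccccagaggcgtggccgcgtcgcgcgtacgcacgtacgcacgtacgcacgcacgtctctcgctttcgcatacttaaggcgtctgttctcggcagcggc
RPL7L1 (GRCh38.p14, chr6:42879366-42879615, plus strand): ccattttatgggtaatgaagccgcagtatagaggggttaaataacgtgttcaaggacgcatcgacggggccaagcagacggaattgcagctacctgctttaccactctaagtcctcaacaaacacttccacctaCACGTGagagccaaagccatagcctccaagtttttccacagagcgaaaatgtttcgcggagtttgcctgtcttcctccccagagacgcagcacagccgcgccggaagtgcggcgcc
COL21A1 (GRCh38.p14, chr6:56247581-56247830, minus strand): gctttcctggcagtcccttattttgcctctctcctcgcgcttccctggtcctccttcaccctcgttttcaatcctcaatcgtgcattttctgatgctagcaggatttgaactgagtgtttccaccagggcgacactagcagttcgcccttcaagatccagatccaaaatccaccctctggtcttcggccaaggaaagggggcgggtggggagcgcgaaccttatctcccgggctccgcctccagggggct
VEPH1 (GRCh38.p14, chr3:157503417-157503666, minus strand): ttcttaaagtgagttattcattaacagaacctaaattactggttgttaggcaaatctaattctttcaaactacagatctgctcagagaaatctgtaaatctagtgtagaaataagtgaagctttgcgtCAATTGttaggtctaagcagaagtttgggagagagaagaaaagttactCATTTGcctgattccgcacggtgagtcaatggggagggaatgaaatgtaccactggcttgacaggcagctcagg

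Fallen mitochondrial genes numbered 3. GATC, a subunit of the enzyme that makes glutaminyl-tRNA in mitochondria, stood at -0.32 (PPDE 0.99), SFXN4, a mitochondrial sideroflexin, at -0.31 (PPDE 1.00), and TRMU, which thiolates mitochondrial tRNAs, at -0.25 (PPDE 0.996) in the authors' deposited table. Among noncoding RNAs FIRRE, an X-linked RNA that takes part in nuclear organisation, stood at -0.45 (PPDE 1.00) in the authors' deposited table. PRKCQ-AS1 was at -0.82 (PPDE 1.00) and its neighbour PRKCQ at -1.37 without a call (PPDE 6.16e-03) in the authors' deposited table, and whether reads were counted by strand is not given in the sources used here. The other 8 fallen genes lay between -1.03 and -0.25. They were the galactosyltransferase B3GALT1 (-1.03), TTYH2 (-0.54), a tweety-family membrane protein, the cancer-testis antigen MAGEA1 (-0.48), the carbonic anhydrase CA12 (-0.44), ASB13 (-0.42), a substrate adaptor of ubiquitin ligases, C1orf109 (-0.28), the helix-loop-helix factor TCFL5 (-0.28) and the zinc finger gene ZNF589 (-0.25) in the authors' deposited table. MAGEA1 belongs to a family of near copies, of which MAGEA3 (-0.15), MAGEA4 (-0.20) and MAGEA10 (0.15) were not called in the authors' deposited table.

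Of the risen genes 4 belong to adhesion, matrix and the cytoskeleton, at 0.15 to 0.38. CTGF and CYR61, secreted matricellular proteins and well-known targets of YAP, stood at 0.38 and 0.30 (PPDE 1.00 each) in the authors' deposited table, and at -1.83 and -1.24 in WT against EV. They were the called members of a list of 22 YAP/TAZ and SRF targets, whose median of 0.08 compares with -0.066 for all tested genes. F3 (0.27) and CNN1 (-1.25) of that list were not called in the authors' deposited table. The heparan sulfate proteoglycan SDC4 stood at 0.27 (PPDE 0.99) and the myosin MYO1E at 0.15 (PPDE 0.993), the smallest fold of any called gene, in the authors' deposited table. EREG, a ligand of the EGF receptor, had the largest interpretable rise, 0.73 (PPDE 0.968), and stood at -0.93 in WT against EV without a call (PPDE 0.446) in the authors' deposited table. It was the only called gene of 15 tested EGF-family ligands and receptors, and AREG had no value. PDCD1LG2, a ligand of the checkpoint receptor PD-1, stood at 0.52 (PPDE 0.992), and CD274, the other ligand, stood at 0.39 without a call (PPDE 2.12e-03) in the authors' deposited table. PDCD1LG2 was the called gene of 21 of immune checkpoints and antigen presentation, with a median of 0.07. FBXO32, an F-box protein known from muscle atrophy and the called gene of 15 in that list (median -0.04), stood at 0.48 (PPDE 0.966), and VEPH1, a protein with a PH domain, at 0.54 (PPDE 1.00) in the authors' deposited table. In WT against EV these 3 stood at -2.11, -1.56 and -1.29. The glucose transporter SLC2A3 was at 0.45 (PPDE 1.00) and MAT1A, which makes S-adenosylmethionine in liver, at 0.41 (PPDE 0.997) in the authors' deposited table. In the comparison of WT with EV they stood at -1.55 and -0.13.

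The authors fitted the 9368 genes to which they gave a MYC binding site a second time and separately. How the sites were mapped is not given in the sources used here. Among the called genes 30 of 45 (66.7%) had a binding site, against 24.1% of all tested genes. Among protein-coding genes it was 28 of 40 called, against 50.4% of 16358 tested. The shares were not matched for the reads behind the genes, and enrichment was not tested. The second fit called 19 of 9178 genes (0.207%), 10 risen (0.109%) and 9 fallen (0.0981%), so that 52.6% of its calls had risen. In the first fit 6 of the 30 bound calls, or 20%, had risen. Only 4 genes were called by both fits, 13.3% of the bound calls of the first and 21.1% of the calls of the second. They were COL21A1 (-1.65 and -1.56), FBXO32 (0.48 and 0.57), PDCD1LG2 (0.52 and 0.61) and VEPH1 (0.54 and 0.63) in the authors' deposited tables, each with the first fit named first.

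Every one of the 30 bound calls kept its sign in the second fit, but 26 lost their call, 23 of them falls, and 21 of the 26 had a PPDE under 0.1 there. The 9 bound RNA-processing genes are among these, while RRP1B and SNHG4 were not in that fit. NOP56 went from -0.31 to -0.23 and its PPDE to 0.0179, SNRNP40 from -0.30 to -0.23 and to 1.34e-03, and GEMIN5 from -0.33 to -0.26 and to 0.0535 in the authors' deposited tables. CYR61 moved from 0.30 to 0.38 and its PPDE fell from 1.00 to 0.257, so that a larger fold lost its call. RGS16, BMP6 and CA12 kept a PPDE of 0.802, 0.757 and 0.857 in the authors' deposited table of bound genes. Conversely, 15 genes were called by the second fit alone, 7 risen and 8 fallen, and 14 of them had a first-fit PPDE under 0.1. Fallen there were the mitochondrial RNA helicase SUPV3L1 (-0.28), the copper homeostasis gene CUTC (-0.28), the squalene synthase FDFT1 (-0.26), the chromatin remodeller CHD7 (-0.22), the histone chaperone NASP (-0.22), AC093323.3 (-0.21), the splicing factor SF3A3 (-0.19) and the ribosomal protein RPL6 (-0.17) in the authors' deposited table of bound genes. Risen there were TGFB2-AS1 (0.81), the focal adhesion scaffold NEDD9 (0.36), MYO1D (0.35), the lysosomal enzyme HGSNAT (0.34), VMP1 (0.33), an autophagy protein, the receptor phosphatase PTPRB (0.33) and SCRN1 (0.10). SUPV3L1 had a lower fold in the first fit, -0.35, with a PPDE of 5.12e-03. TGFB2-AS1 lies beside TGFB2, which stood at 0.56 in the authors' deposited table of bound genes without a call.

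The fits differ in scale. For the 9162 bound genes with values in both, the second fold was higher in 8922, by a median of 0.076 with a 5th to 95th percentile of 0.038 to 0.136. The median log2 fold of bound genes was -0.082 in the first fit and -0.006 in the second. Whether this shift moves the calls was not tested.

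**Figure D2:**
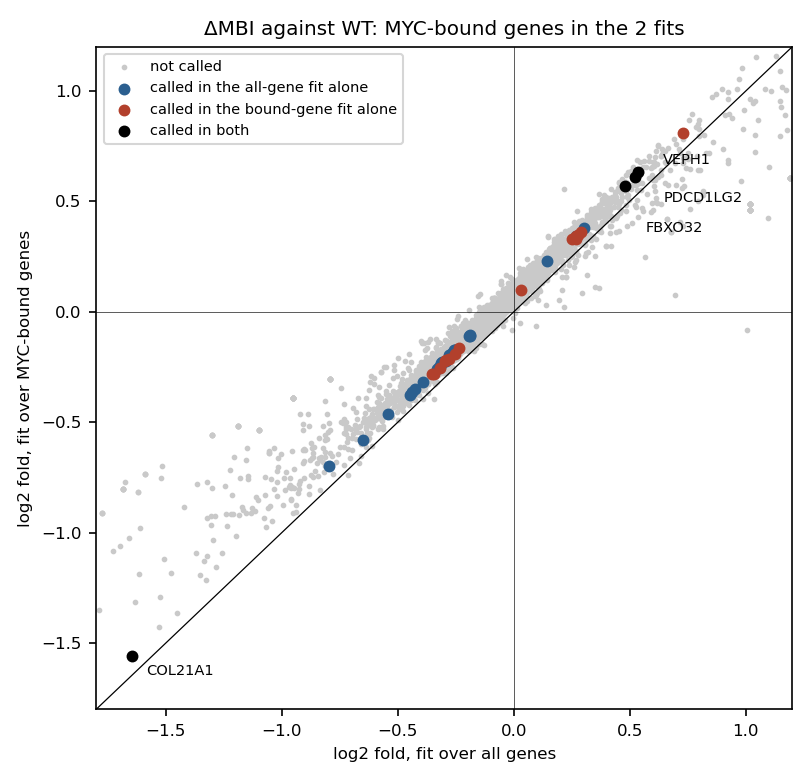
Log2 folds of ΔMBI over WT for MYC-bound genes are plotted in the fit over all genes (x axis) against the fit over bound genes (y axis), with the diagonal as a line. Blue points were called in the first fit alone, red in the second alone and black in both. Most of the cloud lies above the diagonal, with 86 of 9162 genes, none of them called, outside the axes.

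The size of a fold did not set the call. Of the tested genes 7313 had an absolute log2 fold of at least 1, of which 1427 are protein coding. Among the 7313 genes 7 were called, CTD-2328D6.1 included. In 6623 tested genes, none of them called, the exact fold was a value that at least 10 genes shared. The commonest such value was 1.02, at which 874 genes stood. The reads behind these genes were not used here. Of all tested genes 99.4% had a PPDE under 0.05, and 12 lay between 0.90 and 0.95. The nearest below the threshold were RP11-690D19.3 (-0.53, PPDE 0.947), the splicing factor SF3B3 (-0.22, PPDE 0.945), PPFIBP2 (-1.15, PPDE 0.943), the mitochondrial methionyl-tRNA synthetase MARS2 (-0.36, PPDE 0.942) and the mitochondrial ribosomal protein MRPS27 (-0.24, PPDE 0.940) in the authors' deposited table. Just inside it were FBXO32 at 0.966, EREG at 0.968 and ABT1 at 0.969.

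The other deletions, labelled d0x, d2, d3a, d3b and d4 and called ΔMB0, ΔMBII, ΔMBIIIa, ΔMBIIIb and ΔMBIV by the same reading, were compared with the same 4 WT libraries, so their values are set beside those of ΔMBI without a test of the difference, and a call in one comparison and not in another shows no difference. Their own shares of called genes were 0.559%, 1.45%, 0.0419%, 0.0955% and 1.11% in that order. NPTX1 and RPL7L1 were called in all 7 comparisons of the authors' deposited table. NPTX1 stood at -6.38 in ΔMB0, -4.42 in ΔMBII, -4.30 in ΔMBIV, -3.36 in ΔMBIIIa and -2.21 in ΔMBIIIb in the authors' deposited table. The ΔMBI value of -2.75 lies between ΔMBIIIb and ΔMBIIIa. PPP2R2C stood at -2.70 in ΔMBI, -2.93 in ΔMBII, -2.02 in ΔMB0, -1.0 in ΔMBIV, -1.62 in ΔMBIIIa and -1.58 in ΔMBIIIb in the authors' deposited table, called in the first 3. GEMIN5 stood at -0.33 in ΔMBI, -0.40 in ΔMB0, -0.77 in ΔMBII, -0.35 in ΔMBIV, -0.22 in ΔMBIIIa and 0.11 in ΔMBIIIb in the authors' deposited table. NOP56 was at -0.31 in ΔMBI, -0.23 in ΔMB0, -0.64 in ΔMBII, -0.31 in ΔMBIV, -0.14 in ΔMBIIIa and 0.15 in ΔMBIIIb there. For CTGF the authors' deposited table has 0.38 in ΔMBI, 0.64 in ΔMB0, 1.38 in ΔMBII, 0.53 in ΔMBIV, 0.23 in ΔMBIIIa and 0.00 in ΔMBIIIb.

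Of the 45 called genes 6 carry a call in ΔMBI against WT and in no other of the 7 comparisons. Besides CTD-2328D6.1 they were COL21A1, NES, TCFL5, BUD13 and EREG, named after their values were seen. COL21A1 at -1.65 stood beside -0.99 in ΔMB0, -1.10 in ΔMBII, -0.82 in ΔMBIV, -0.85 in ΔMBIIIa and -0.89 in ΔMBIIIb in the authors' deposited table. NES at -0.86 stood beside -0.55 in ΔMB0, -0.25 in ΔMBII, -0.15 in ΔMBIV, 0.05 in ΔMBIIIa and -0.26 in ΔMBIIIb. EREG at 0.73 stood beside 0.12 in ΔMB0, 0.42 in ΔMBII, -0.14 in ΔMBIV, -0.49 in ΔMBIIIa and -0.84 in ΔMBIIIb in the authors' deposited table. TCFL5 at -0.28 stood beside -0.21 in ΔMB0 (PPDE 0.92), -0.23 in ΔMBII, -0.16 in ΔMBIV, -0.10 in ΔMBIIIa and -0.09 in ΔMBIIIb. BUD13 at -0.19 stood beside -0.04 in ΔMB0, -0.24 in ΔMBII, -0.19 in ΔMBIV, -0.05 in ΔMBIIIa and 0.20 in ΔMBIIIb. In WT against EV TCFL5 and BUD13 had a PPDE of 0.899 and 0.868 in the authors' deposited table. SYT2, also called in WT against EV, had -0.01 in ΔMB0, -0.66 in ΔMBII, -0.39 in ΔMBIV, -0.23 in ΔMBIIIa and -0.22 in ΔMBIIIb there.

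**Figure D3:**
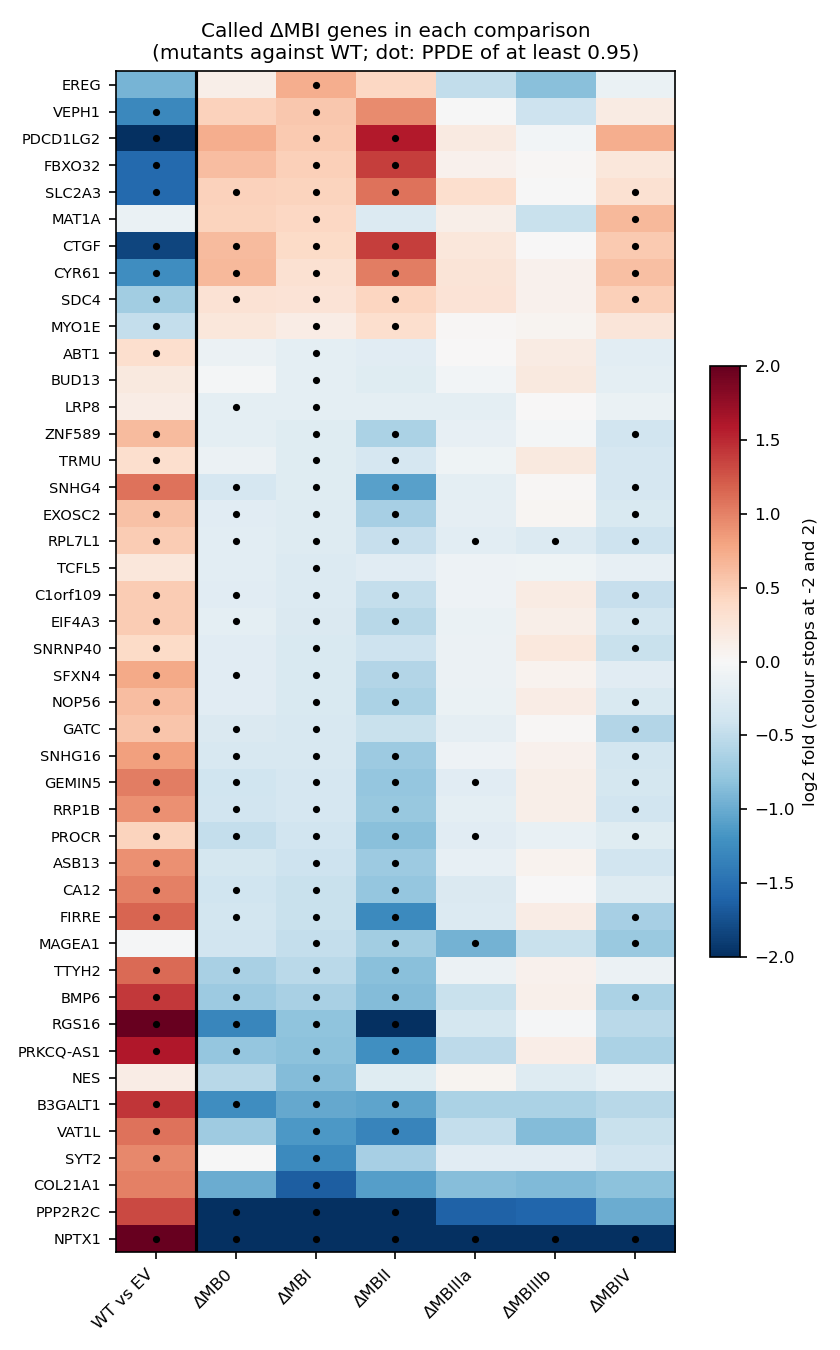
Colour shows the log2 fold of each of the 44 called genes (rows, ordered by the ΔMBI fold) in 7 columns, WT against EV first and then every mutant against WT, with a dot where the PPDE is at least 0.95 and colour capped at the ends of its bar. NPTX1 and RPL7L1 have a dot in every column, and COL21A1, NES, TCFL5, BUD13 and EREG only in that of ΔMBI. The mutant columns share their WT libraries with each other and with the first column.

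Gene lists are described by counts and medians beside those of all tested genes, of which 58.2% stood below 0 and 0.119% were called. Of protein-coding genes 65.9% stood below 0, with a median of -0.077. With 0.119% called, a list of such a size would seldom hold a call. A list without one, here or above, is thus no result about its members. All 45 ribosome biogenesis genes stood below 0, with a median of -0.21 and a range of -0.44 to -0.03, and 43 lay below the median protein-coding gene. Only NOP56 and RRP1B fell by call. NOL9 (-0.26, PPDE 0.917) and TSR1 (-0.29, PPDE 0.126) came next in the authors' deposited table. In the second fit 37 of its 39 bound members stood below 0, with a median of -0.13 against -0.006 for that fit, and none was called. Nucleotide and polyamine synthesis genes all stood below 0 as well, 27 of 27, with a median of -0.18 and no call. CTPS1, which makes CTP, was the nearest at -0.18 (PPDE 0.732), and ODC1, the entry enzyme of polyamine synthesis, stood at -0.23 (PPDE 0.0228) in the authors' deposited table. Likewise 26 of 26 mitochondrial biogenesis and chaperone genes stood below 0, with a median of -0.23 and no call. GRPEL1, a cochaperone of protein import, had -0.28 (PPDE 0.281) in the authors' deposited table. Of 30 genes of G1/S and DNA replication 27 stood below 0, with a median of -0.20 and no call, and the cyclin CCNE1 and the replicative helicase subunit MCM4 stood at -0.25 and -0.35 (PPDE 0.399 and 0.0511) in the authors' deposited table. The 24 genes of G2/M and mitosis had a median of -0.05 and no call.

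At the other end were lists without a call whose medians lay above 0. The 35 matrix glycoproteins and remodelling genes had a median of 0.18, with 10 below 0, and TGFBI and ITGB3 stood at 0.29 and 0.58 (PPDE 0.0505 and 0.0233) in the authors' deposited table. The 25 tested chemokines, interleukins and NF-kB targets had a median of 0.20, with 6 below 0, and IL6 stood at 0.80 (PPDE 0.117) in the authors' deposited table. The 23 ERK feedback and immediate early genes had a median of 0.12. In WT against EV the same lists had medians of -1.01, -0.30 and -0.44, and those of ribosome biogenesis, nucleotide synthesis and mitochondria 0.56, 0.40 and 0.45. As both comparisons hold the WT libraries, the opposite signs are not independent. Members of a list can also share regulation and are not replicates.

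Of 24 genes listed for box I phosphorylation and for MYC turnover in either direction only FBXO32 was called, and the median was -0.08. FBXW7 stood at -0.18, USP37 at -0.23 and FBXL14 at -0.31 in the authors' deposited table. The 13 genes of the MYC family and MAX network had no call and a median of -0.02, with the antagonist MXD3 lowest at -0.47 in the authors' deposited table. None of 21 MYC cofactors and elongation factors was called, and their median of -0.07 was near the -0.066 of all tested genes. ZBTB17, WDR5 and RUVBL1 stood at -0.37, -0.22 and -0.18 and KAT2B at 0.26 in the authors' deposited table. Of 23 genes of the BCL2 family and cell death none was called, and the median was -0.05. The killers went both ways, with HRK at -0.83, BOK at -0.29, BCL2L11 at -0.27 and BAD at 0.26 in the authors' deposited table. No gene was called either among 22 of CDK inhibitors and growth arrest (median near 0), 20 p53 targets (median -0.15) and 22 of glycolysis (median -0.16). The same held for 28 of the interferon response (median 0.05) and 19 of ATF4 and the unfolded protein response (median near 0). With 0.119% of all tested genes called, lists of these sizes seldom hold a call.

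Markers of cell types carry folds only, so the neuroblastoma label cannot be set against marker levels. Of the adrenergic neuroblastoma list 17 of 22 genes had a value, with a median of -0.09 and no call. In the mesenchymal list NES was the only call of 22, with a median of 0.01. SOX10, the defining factor of Schwann cells and neural crest, had no value, and the 15 tested genes of that list had a median of 0.09. The 13 epithelial genes ranged from -2.32 (GRHL2) to 2.14 (KRT14) without a call, with a median of -0.07. The 12 tested immune cell genes ranged from -1.52 to 2.10 without a call, with a median of -0.36, and PTPRC, the pan-leukocyte marker, stood at -1.07 (PPDE 3.76e-03) in the authors' deposited table. A list of 21 genes taken as a sign of RNA quality had a median of -0.01 and no call, but its parts lay on opposite sides of 0. Of 8 histone genes 7 stood below 0, with a median of -0.35 and a lowest value of -0.47. Of 11 mitochondrially encoded genes 9 stood above 0, with a median of 0.27. The highest were the ribosomal RNAs MT-RNR1 at 2.88 (PPDE 7.22e-03) and MT-RNR2 at 1.68 (PPDE 1.5e-04) in the authors' deposited table. In the other deletions MT-RNR1 stood at -0.10 in ΔMB0, 0.54 in ΔMBII, 0.22 in ΔMBIV, 0.52 in ΔMBIIIa and 0.06 in ΔMBIIIb there. The remaining pair, the nuclear RNAs MALAT1 and NEAT1, stood at -0.02 and -0.05 in the authors' deposited table. Whether RNA quality has a part in the folds was not tested. The part of other cell types in the folds was not tested.

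**Figure D4:**
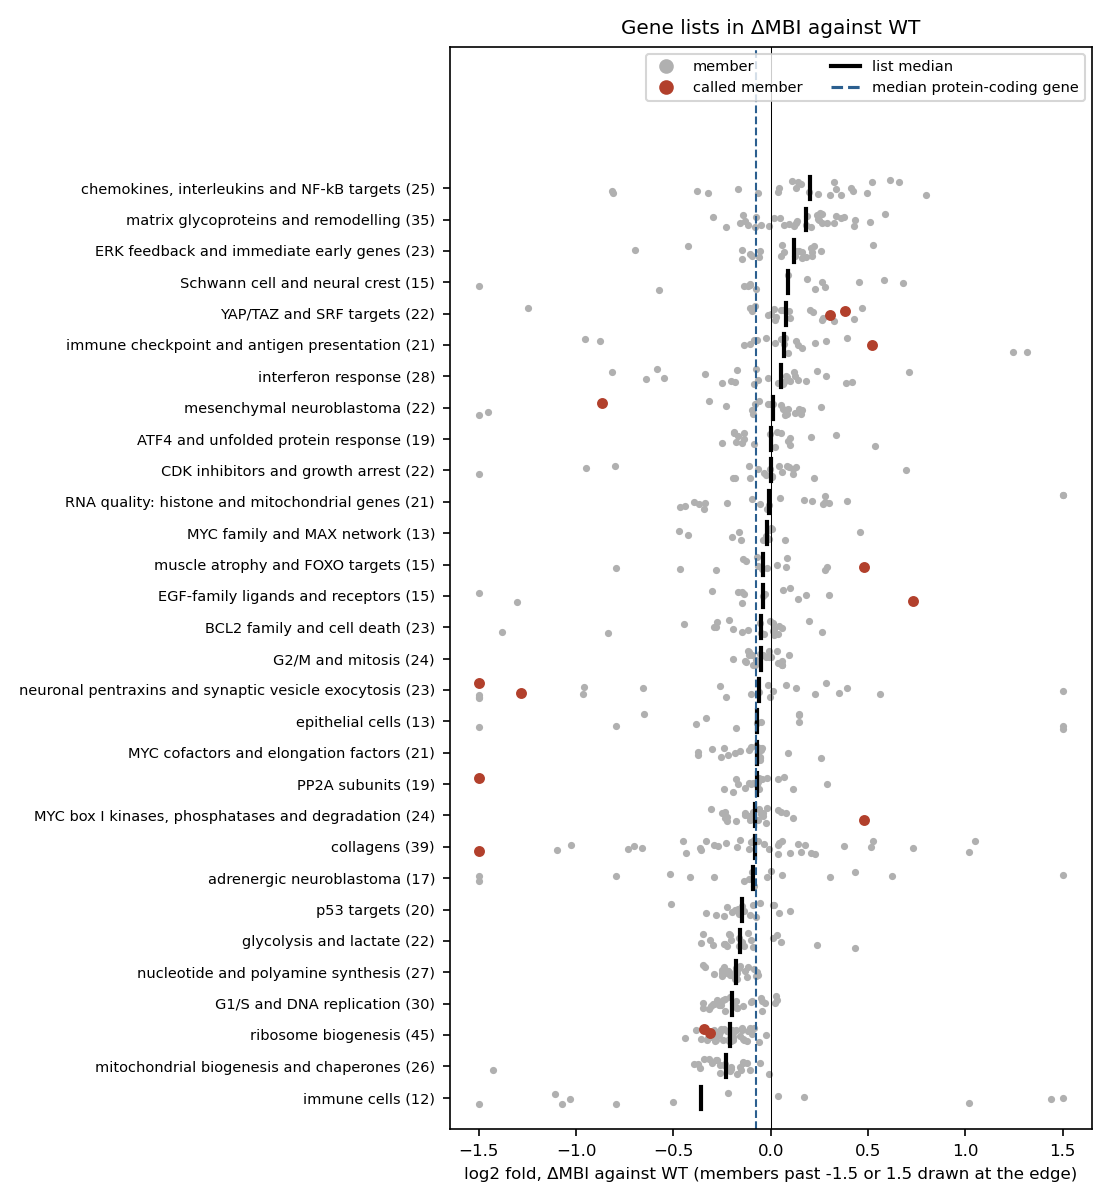
Each row is a gene list with its number of tested genes, each grey point a member's log2 fold of ΔMBI over WT (x axis), each red point a called member and each black bar the list's median. Ribosome biogenesis, at -0.21, and mitochondrial biogenesis, at -0.23, lie left of the dashed line of the median protein-coding gene (-0.077), and matrix glycoproteins lie right of it at 0.18. Points are spread within a row only for legibility, and those past the axis limits are drawn at its edges.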

How the data were processed

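RNA of TET21 cells was sequenced in 8 groups of 4 libraries. There are 2 tables of the 7 comparisons the authors made, for 58317 and 9368 genes. Per the file headers, each gives per gene a log2 posterior fold change and a PPDE that the authors took from a Bayesian model, and leaves genes without reads empty. For ΔMBI against WT 20344 genes had none. The submitters' processing notes name edgeR 3.16.5, DESeq, R 3.3.1, GRCh37 and STAR 2.5.2a without their roles. The program behind the posterior values, the scaling of libraries and the assignment of binding sites are not given in the sources used here. No test was added: no values per library were used, so depth is unknown and no comparison of ΔMBI with EV, leave-one-out or block was run.

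Members and the 30 lists were chosen with earlier results of these data known. Named were MYC, MYCN and MYCL, every called gene, the 5 nearest below the threshold and, from each list, as many as 4 members of highest PPDE. Paralogs, overlapping genes and defining markers outside that rule were added by identity after the values could be seen. Gene types came from GENCODE 29 by symbol (GRCh38, 44 of 45 called genes matched), promoters from RefSeq on GRCh38.p14. No coordinate was set beside GRCh37 values. Counting was checked on a simulated table. Alternatives were other PPDE and fold thresholds, protein-coding genes, the second fit and centred folds. Python 3.11.15 and pandas 2.3.3 were used.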

Additional observations from a re-analysis of the deposited data

How the results depend on the processing

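The count of genes called in ΔMBI against WT was 45. It was 57 at a PPDE of at least 0.90, 36 at 0.99 and 40 over protein-coding genes alone. With an absolute log2 fold of at least 0.5 it was 15 and with at least 1 it was 7. Both of these counts include CTD-2328D6.1, whose fold is not given here. In the authors' fit over bound genes the count was 19, with a split of 10 risen and 9 fallen in place of 11 and 34. The 19 calls of that fit became 22 at 0.90, 13 at 0.99, 5 with a fold of at least 0.5 and 1 with at least 1. WT against EV had 2104 calls at 0.90 and 1518 at 0.99. Centring on the median gene (-0.066) changed no direction among the 45 called genes, but changed the sign of 8 of 30 list medians. The medians of ribosome biogenesis, nucleotide synthesis and mitochondria then stood at -0.15, -0.12 and -0.16. Of 30 bound calls 26 were lost and 4 held in the second fit, none with a change of sign, and the cause was not tested. No paired analysis was possible because the deposited tables hold 1 value per gene and comparison, which also kept replicates from being left out in turn. Depth is unknown, so what it limits cannot be stated.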
